A study of Mus musculus with 9 samples.

Results

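The ADAMTS proteases are secreted metalloproteinases that carry thrombospondin repeats and cut proteins of the extracellular matrix. In all, 10 genes of the family were followed, Adamts1, Adamts2, Adamts4, Adamts5, Adamts6, Adamts9, Adamts10, Adamts12, Adamts14 and Adamts15, found by symbol among the 40548 genes of the expression tables. RNA-seq was performed on primary cells from the calvaria of C57BL/6 mice, the flat bones of the skull roof, taken on postnatal day 2 to 3 according to the labels. Day 0 cells were grown to confluency and not differentiated, and day 4 and day 7 cells were kept for that time in mineralization medium. This medium held β-glycerol phosphate and ascorbic acid. Each stage had 3 libraries. Replicates are described as biological, but no library is tied to a litter. For harvest, the labels state trypsin alone (0.05%) for cells that had not mineralized and collagenase I before trypsin for cells that had, so the harvest can differ with the stage, and its part in the values was not tested. The methods state a wider age range of the pups and a higher trypsin concentration than the labels.

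ADAMTS2 and ADAMTS14, with the related ADAMTS3, remove the amino-terminal propeptide of fibrillar procollagens, a step that lets collagen molecules assemble into fibrils in bone, skin and tendon. ADAMTS1, ADAMTS4, ADAMTS5, ADAMTS9 and ADAMTS15 cut the core proteins of large aggregating proteoglycans such as aggrecan and versican, and ADAMTS4 and ADAMTS5 are best known as the aggrecanases of cartilage. ADAMTS6 and ADAMTS10 act on the fibrillin microfibril system, and ADAMTS12 cuts cartilage oligomeric matrix protein (COMP). All are made with a propeptide, and proprotein convertases such as furin process many of them.

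Promoter sequence from RefSeq (GRCm38.p6) was at hand for 5 of the 10 genes. The 250 bases before the annotated start are shown 5′ to 3′ for both procollagen-cleaving genes and for Adamts1 and Adamts9, a pair of proteoglycan-cleaving genes that moved in opposite directions. Capitals mark matches to the GC box GGGCGG, the core of Sp-family binding sites, on either strand, and neighboring matches may share bases.
Adamts2: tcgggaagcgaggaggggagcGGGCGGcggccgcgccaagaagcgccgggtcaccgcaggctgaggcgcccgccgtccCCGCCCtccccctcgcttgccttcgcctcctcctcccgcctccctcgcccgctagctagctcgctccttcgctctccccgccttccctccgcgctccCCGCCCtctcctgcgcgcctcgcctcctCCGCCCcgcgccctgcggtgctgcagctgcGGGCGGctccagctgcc
Adamts14: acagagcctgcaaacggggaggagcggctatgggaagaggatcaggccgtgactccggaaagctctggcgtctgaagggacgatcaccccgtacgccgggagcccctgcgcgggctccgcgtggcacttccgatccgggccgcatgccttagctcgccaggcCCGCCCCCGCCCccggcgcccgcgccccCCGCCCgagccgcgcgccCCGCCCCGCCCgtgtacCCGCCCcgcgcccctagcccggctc
Adamts1: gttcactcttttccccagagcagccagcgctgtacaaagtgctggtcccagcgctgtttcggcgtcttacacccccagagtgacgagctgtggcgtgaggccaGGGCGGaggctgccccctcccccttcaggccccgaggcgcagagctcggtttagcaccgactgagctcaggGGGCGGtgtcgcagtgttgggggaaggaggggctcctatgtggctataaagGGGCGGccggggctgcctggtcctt
Adamts9: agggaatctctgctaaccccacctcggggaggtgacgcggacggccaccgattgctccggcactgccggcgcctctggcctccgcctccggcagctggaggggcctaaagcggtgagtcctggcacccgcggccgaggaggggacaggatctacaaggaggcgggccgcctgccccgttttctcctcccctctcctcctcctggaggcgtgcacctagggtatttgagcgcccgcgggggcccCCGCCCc
The windows lie at chr11:50601835-50602084 (plus strand) for Adamts2, chr10:61273420-61273669 (minus strand) for Adamts14, chr16:85803114-85803363 (minus strand) for Adamts1 and chr6:92943535-92943784 (minus strand) for Adamts9, whose RefSeq start is not among the GENCODE M21 transcript starts. The Adamts14 window held 6 GC boxes and the Adamts2 window 5, against 3 in that of Adamts1, 1 in that of Adamts9 and 0 in that of Adamts12, which is not shown. In the same order, G and C made up 76.4%, 78.0%, 65.6%, 71.2% and 63.2% of the bases. The part of this composition in the counts was not tested. Among 32851 RefSeq promoter windows of the same length, 32.7% held at least 1 GC box. The AP-1 motif TGANTCA, present in 6.75% of windows, and the RUNX motif TGTGGT, present in 14.0%, had no match in any of the 5 windows on either strand.

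Between day 0 and day 7 the family split in both directions. Adamts5 and Adamts1, the most abundant members before differentiation, fell, whereas Adamts15, Adamts9, Adamts12 and Adamts14 rose. Adamts2, Adamts4, Adamts6 and Adamts10 did not pass the main test, though Adamts2 and Adamts10 passed as higher in some alternatives. Levels are given as RPKM, the reads on a gene scaled to its length and to all reads on genes. The lengths behind the deposited RPKM match the exonic bases of GENCODE M21 for Adamts1, Adamts2, Adamts4 and Adamts14, but M21 is longer by 1.20 times for Adamts9, 1.33 for Adamts5, 1.51 for Adamts10, 1.62 for Adamts6, and 1.75 for Adamts12 and Adamts15. Comparisons of one gene between libraries do not depend on this, whereas the order of genes does. Day 7 was tested against day 0 with limma on log2(CPM + 0.5), where CPM has the same scaling to reads without the length, and a gene was called at a Benjamini-Hochberg adjusted p under 0.05 over the 12712 genes tested. All 10 members entered the test, and 4 rose and 2 fell, where 31.2% of all genes tested were called, 12.6% as higher and 18.6% as lower. The paper's own approach was TMM scaling with voomWithQualityWeights. Run here on recovered reads, it called 6 members higher and 2 lower, adding Adamts2 (adjusted p = 0.0499) and Adamts10 (adjusted p = 0.00122). Over all 12712 genes it called 3148 higher and 2972 lower. The median log2 fold change was 0.19 over the 10 members and -0.11 over all genes tested. By role, the median was 0.43 over the 2 procollagen-cleaving genes, -0.21 over the 5 proteoglycan-cleaving genes and 0.20 over the other 3. In whole cultures, fewer cells that make a transcript and less transcript per cell cannot be told apart.

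**Figure D1:**
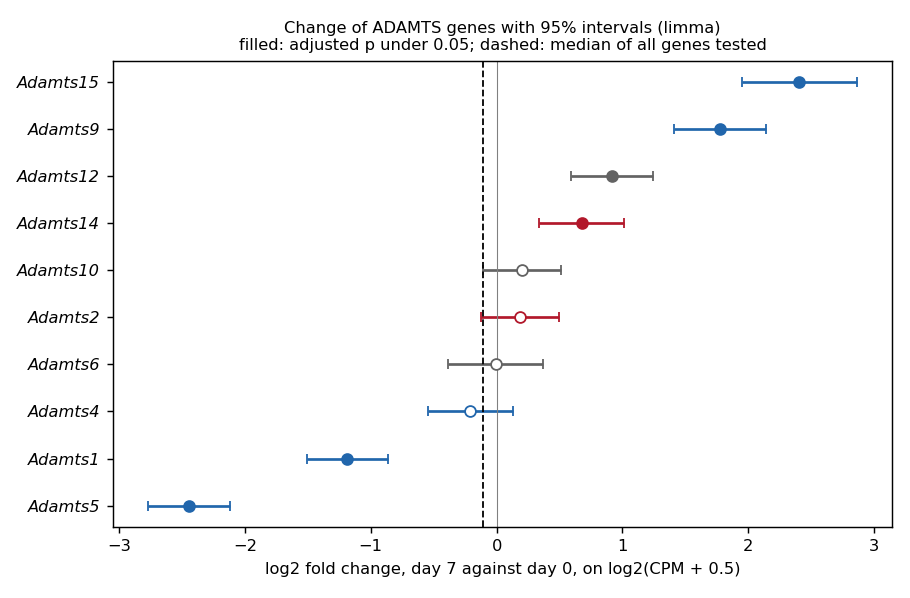
Log2 fold change of each ADAMTS gene at day 7 against day 0 on the log2(CPM + 0.5) scale (x axis), with 95% confidence intervals from limma over 3 libraries per stage. Filled points passed an adjusted p of 0.05, the dashed line is the median of all genes tested (-0.11), and the genes run from 2.41 for Adamts15 to -2.44 for Adamts5.

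The day 4 values come from separate tables and deeper sequencing, with 32820610 to 37306090 reads on genes against 7741204 to 15622755 in the other 6, so day 4 was compared by value only. Day 0 replicate 3 was the shallowest library, and nuclear protein-coding genes took 79.9% of its reads, against 84.7% in day 7 replicate 2 and 90.7% to 94.8% in the other 7 libraries. Among the day 0 libraries it also had the lowest RPKM for 9 of the 10 members, and the part of its composition in those values was not tested. The same 6 members were called, in the same directions, when this library was left out. Of the markers of the labelled cell type, 7 of 8 osteoblast genes rose (Sp7, Alpl, Ibsp, Bglap, Dmp1, Phex and Col1a1), where 12.6% of all genes tested did. Runx2 was not called (log2 0.23, limma adjusted p = 0.268), although its day 4 and day 7 libraries all lay above those of day 0.

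**Figure D2:**
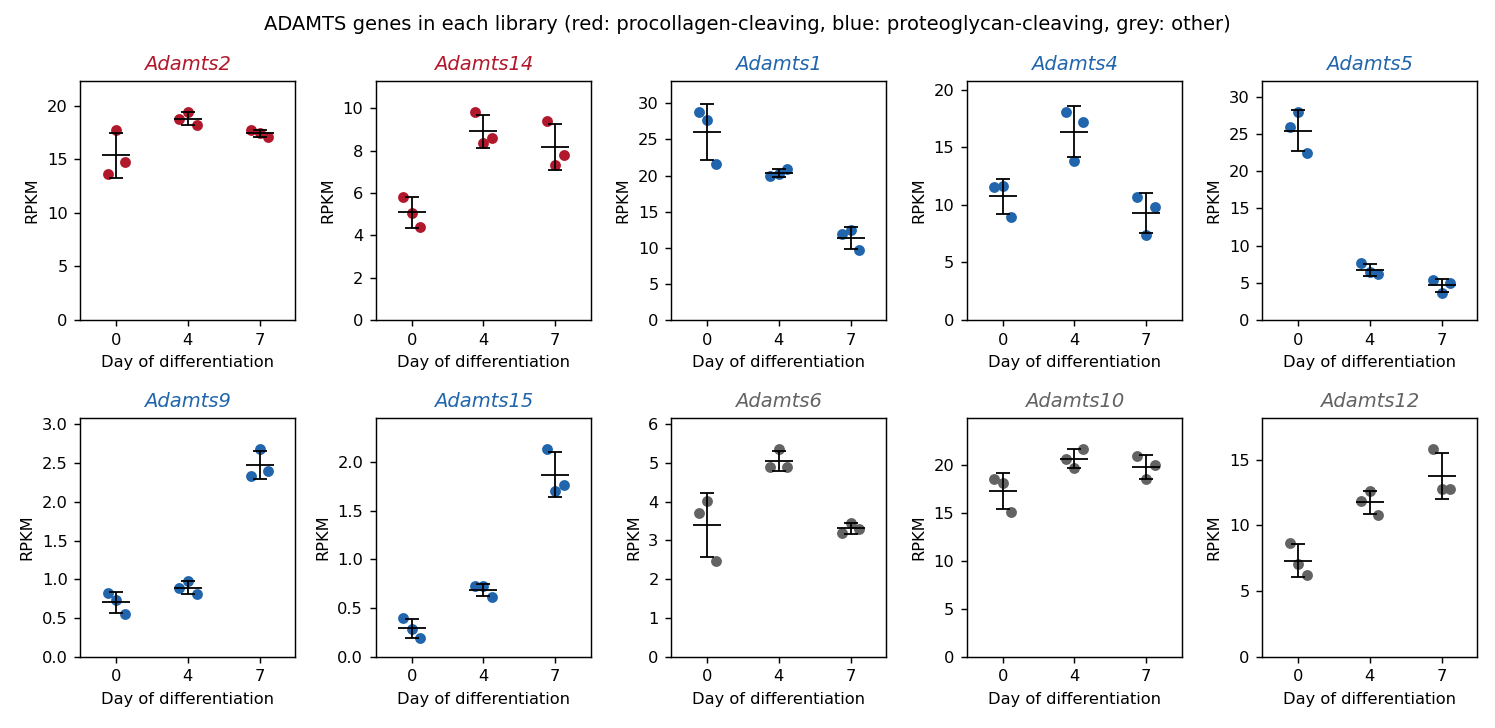
RPKM (y axis, from 0) of the 10 ADAMTS genes in each library by day of differentiation (x axis), with 1 point per library and lines for the mean and SD of 3 libraries. Red names are procollagen-cleaving, blue names proteoglycan-cleaving and grey names other members, and the panels show the drop of Adamts5 before day 4 and the rise of Adamts9 after it.

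Of the procollagen-cleaving enzymes, Adamts14 rose and Adamts2 did not pass the test. Adamts2 (chromosome 11, 50602084 to 50807573, GRCm38) is the main procollagen N-proteinase of skin. It was measured at 13.6, 17.7 and 14.8 RPKM at day 0, at 18.7, 19.4 and 18.2 RPKM at day 4 and at 17.8, 17.4 and 17.1 RPKM at day 7. All day 4 libraries lay above all day 0 libraries, but the day 7 libraries overlapped those of day 0 through day 0 replicate 2. The mean level was 15.4 ± 2.11 RPKM at day 0, then 18.8 ± 0.598 at day 4 and 17.4 ± 0.331 at day 7 (SD, n = 3). The log2 fold change at day 7 was 0.19 (95% interval -0.12 to 0.50, limma adjusted p = 0.379). On recovered reads it passed as higher with DESeq2 (adjusted p = 0.0374) and voomWithQualityWeights (adjusted p = 0.0499), but not with edgeR (adjusted p = 0.0769) or with limma after TMM scaling (adjusted p = 0.0667).

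Adamts14 (chromosome 10, 61197112 to 61273438) shares the procollagen substrates of Adamts2. Its RPKM was 5.82, 5.05 and 4.37 at day 0, 9.81, 8.36 and 8.57 at day 4 and 9.38, 7.33 and 7.79 at day 7. Every library of either later stage lay above every day 0 library, while day 4 and day 7 overlapped. The rise at day 7 was 0.68 on the log2 scale (SE 0.17, limma adjusted p = 0.00136, higher in all 3 libraries). Its level relative to Adamts2 in the same library averaged 0.336 ± 0.0788 at day 0, then 0.475 ± 0.0462 at day 4 and 0.468 ± 0.0547 at day 7 (SD, n = 3). The day 0 ratios overlapped those of day 7, since day 0 replicate 1 had a ratio of 0.426 and day 7 replicate 2 one of 0.421.

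The 5 proteoglycan-cleaving enzymes did not move together, with 2 lower, 2 higher and Adamts4 not called. Adamts1 and Adamts5 are neighbors on the minus strand of chromosome 16 (85793827 to 85803113 and 85856173 to 85901828), 53059 bases apart with no annotated protein-coding gene between them. Adamts5, the main aggrecanase of mouse cartilage, was measured at 25.9, 27.9 and 22.4 RPKM at day 0. It had fallen to 7.67, 6.44 and 6.16 RPKM at day 4 and stood at 5.36, 3.64 and 4.99 RPKM at day 7. The stages did not overlap, and the mean at day 4 was 0.266 times and at day 7 0.184 times that of day 0. Its log2 fold change at day 7 was -2.44 (SE 0.16, limma adjusted p = 1.21e-17), lower in all 3 libraries.

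Adamts1, which cuts versican as well as aggrecan, kept more of its day 0 level at day 4 than its neighbor. Its RPKM was 28.8, 27.7 and 21.6 at day 0, 19.9, 20.2 and 20.9 at day 4 and 11.9, 12.5 and 9.63 at day 7. Each stage lay below the one before it without overlap, with mean levels of 26.0 ± 3.85, 20.3 ± 0.517 and 11.4 ± 1.52 RPKM (SD, n = 3). The mean at day 4 was 0.781 times and at day 7 0.437 times that of day 0. By day 7 the log2 fold change was -1.19 (SE 0.16, limma adjusted p = 3.81e-08), lower in all 3 libraries.

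Adamts9 and Adamts15 were the least abundant members at day 0 and rose most. Adamts9 (chromosome 6, 92772699 to 92943492), a versican-cleaving enzyme of broad tissue distribution, was at 0.820, 0.727 and 0.557 RPKM at day 0 and at 0.890, 0.975 and 0.815 RPKM at day 4. These stages overlapped, which made Adamts9 the only member with overlap between day 0 and day 4. At day 7 it reached 2.34, 2.68 and 2.40 RPKM, above every earlier library. On the log2 scale the rise was 1.78 (SE 0.18, limma adjusted p = 3.11e-11), and the mean at day 7 was 3.53 times that of day 0. In the GENCODE M21 annotation 12.0% of its exonic bases overlap A730049H05Rik and Gm15737 on the opposite strand, and the study does not state whether counting used strand, so its level is uncertain by reads from these genes.

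Adamts15 (chromosome 9, 30899155 to 30922452), another aggrecan- and versican-cleaving member, was at 0.397, 0.282 and 0.196 RPKM at day 0. These values rested on 9 to 33 reads per library. It was at 0.724, 0.723 and 0.613 RPKM at day 4 and at 2.14, 1.71 and 1.77 RPKM at day 7. All 3 stages were separate, and the mean was 2.35 times that of day 0 at day 4 and 6.41 times at day 7. Its log2 fold change at day 7 was 2.41 (SE 0.23, limma adjusted p = 2.46e-12), higher in all 3 libraries and the largest rise of the 10 genes.

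Adamts4 (chromosome 1, 171250421 to 171260637), the other aggrecanase of cartilage, was highest at day 4. It was measured at 11.6, 11.7 and 8.94 RPKM at day 0, 18.0, 13.8 and 17.2 RPKM at day 4 and 10.7, 7.38 and 9.84 RPKM at day 7. The day 4 libraries lay above those of both other stages, which overlapped each other. Day 7 differed from day 0 by -0.21 on the log2 scale (95% interval -0.55 to 0.13, limma adjusted p = 0.366). The summed RPKM of 9 immediate early genes, which respond within minutes to stimuli such as cell dissociation, moved with this pattern at 85.7 to 108 at day 0, 235 to 285 at day 4 and 110 to 160 at day 7. Of these 9 genes, 4 rose and 1 fell by day 7 in the limma test. Whether they are linked was not tested.

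Among the remaining members Adamts12 rose and Adamts6 and Adamts10 did not pass the test. Adamts12 (chromosome 15, 11064790 to 11349231) was at 8.68, 7.04 and 6.19 RPKM at day 0, 11.9, 12.6 and 10.8 RPKM at day 4 and 15.8, 12.7 and 12.7 RPKM at day 7. Each stage lay above the one before it without overlap. On the log2 scale the rise at day 7 was 0.91 (SE 0.16, limma adjusted p = 1.20e-05), higher in all 3 libraries.

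Adamts10 (chromosome 17, 33524204 to 33553782), which binds fibrillin-1, had its highest mean at day 4. Its RPKM was 18.5, 18.2 and 15.1 at day 0, 20.6, 19.8 and 21.7 at day 4 and 20.9, 18.5 and 20.0 at day 7. The day 4 libraries lay above those of day 0, and day 7 overlapped both other stages. The log2 fold change at day 7 was 0.20 (95% interval -0.11 to 0.51, limma adjusted p = 0.341). This call differed between scalings. Adamts10 passed as higher with limma after TMM scaling (log2 0.31, adjusted p = 0.00378) and after median-of-ratios scaling (log2 0.31, adjusted p = 0.00375). It also passed with edgeR (adjusted p = 0.00328), DESeq2 (adjusted p = 0.00205) and voomWithQualityWeights (adjusted p = 0.00122). With limma after scaling to protein-coding reads it did not pass (adjusted p = 0.167). In all, 5 of 18 alternatives called it.

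Adamts6 (chromosome 13, 104287835 to 104496695), a close relative of Adamts10, was at 3.71, 4.00 and 2.46 RPKM at day 0, 4.91, 5.36 and 4.89 RPKM at day 4 and 3.19, 3.46 and 3.29 RPKM at day 7. Day 4 lay above both other stages, as for Adamts4, while day 0 spanned all of day 7. The log2 fold change at day 7 was -0.01 (95% interval -0.38 to 0.37, limma adjusted p = 0.986), and its sign turned to 0.10 with either TMM or median-of-ratios scaling. These scalings raised the median of all genes by 0.10 on the log2 scale. Relative to the median of all genes, the 6 called members changed by 2.52 (Adamts15), 1.89 (Adamts9), 1.03 (Adamts12), 0.79 (Adamts14), -1.07 (Adamts1) and -2.33 (Adamts5).

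Counted by stage, 7 members had all day 4 libraries above all day 0 libraries, where 21.1% of the genes tested did, and 2 had them all below, where 22.2% did (43.3% in either direction). The 7 were Adamts2, Adamts4, Adamts6, Adamts10, Adamts12, Adamts14 and Adamts15. From day 4 to day 7, 3 members (Adamts9, Adamts12 and Adamts15) lay fully above, against 13.8% of genes tested. Another 5 lay fully below (Adamts1, Adamts2, Adamts4, Adamts5 and Adamts6), against 24.6% (38.5% in either direction). The day 7 libraries were fully above day 0 for 4 members and fully below for 2, against 16.9% and 25.4% of genes tested (42.3% in either direction).

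The balance between procollagen-cleaving and proteoglycan-cleaving transcripts was described within each library, where library scaling cancels. The summed RPKM of Adamts2 and Adamts14 divided by that of the 5 proteoglycan-cleaving genes was 0.288, 0.334 and 0.357 in the day 0 libraries. It was 0.605, 0.658 and 0.586 at day 4 and 0.836, 0.887 and 0.869 at day 7. The 3 stages were separate, with mean ratios of 0.326 ± 0.0346, 0.616 ± 0.0372 and 0.864 ± 0.0260 (SD, n = 3). The mean log2 ratio was higher than at day 0 by 0.92 at day 4 and by 1.41 at day 7. The members had been grouped with earlier results of these data known, so no p-value is given. With the mean of log2(RPKM + 0.1) over the members of each group, which weighs low and high genes alike, the differences were 0.61 and 0.39. By that measure the balance was lower at day 7 than at day 4, unlike the ratio of sums. With M21 lengths the mean ratios were 0.365, 0.647 and 0.939, and the stages were again separate.

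Both sums moved. The proteoglycan-cleaving sum was 63.1 ± 8.16 RPKM at day 0, then 45.0 ± 2.57 at day 4 and 29.7 ± 2.45 at day 7, and the procollagen-cleaving sum was 20.5 ± 2.01, 27.7 ± 0.892 and 25.6 ± 1.34 RPKM (SD, n = 3). The sum over the 10 members was 112 ± 13.0 RPKM at day 0, then 110 ± 2.76 at day 4 and 92.2 ± 6.48 at day 7. Proteoglycan-cleaving transcripts thus made up 56.5% of the family sum at day 0, then 40.8% at day 4 and 32.2% at day 7. The fall of this share lay in Adamts5, which went from 22.8% to 6.12% and 5.04%, and Adamts1, from 23.2% to 18.5% and 12.3%. The mean shares of the rest of the group were not lower at day 7 than at day 0. Adamts4 went from 9.59% to 14.8% and 10.1%, Adamts9 from 0.625% to 0.811% and 2.70%, and Adamts15 from 0.258% to 0.623% and 2.02%. Adamts10 went from 15.5% to 18.8% and 21.5%, and Adamts12 from 6.54% to 10.7% and 14.9%. With M21 lengths the proteoglycan-cleaving share was 59.6%, 45.6% and 35.9%, and that of Adamts12 was 4.40%, 7.14% and 10.3%.

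**Figure D3:**
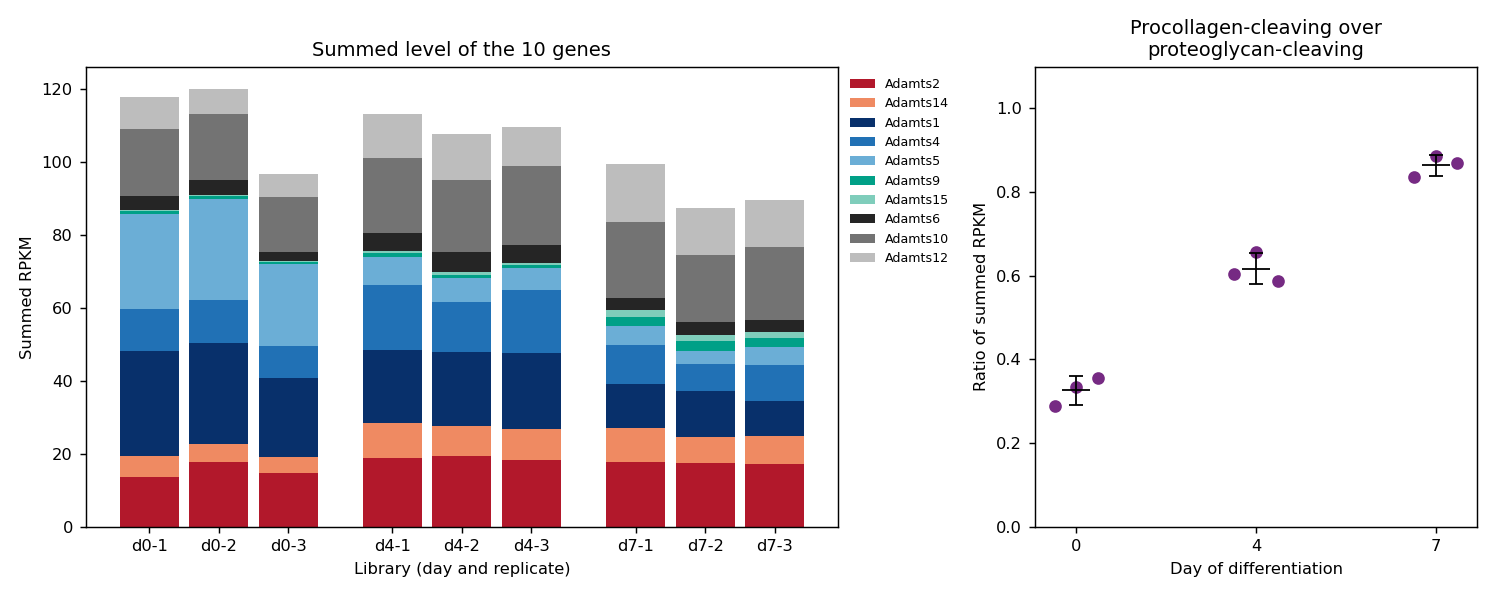
Left, RPKM of the 10 ADAMTS genes stacked for each library (day and replicate on the x axis). Right, the summed RPKM of Adamts2 and Adamts14 over that of Adamts1, Adamts4, Adamts5, Adamts9 and Adamts15 by day, with 1 point per library and the mean and SD of 3 libraries, where the ratio rises from 0.326 at day 0 to 0.864 at day 7 with no overlap between stages.

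The order of the genes by mean deposited RPKM changed with the stage. At day 0 Adamts1 and Adamts5 led with overlapping libraries, followed by Adamts10 and Adamts2, which overlapped each other, and then by Adamts4, Adamts12, Adamts14, Adamts6, Adamts9 and Adamts15 without overlap between neighbors. At day 4 Adamts10 and Adamts1 led with overlap, and Adamts5 had moved from second to seventh place. At day 7 Adamts10 was highest, above Adamts2 and Adamts12 without overlap, while Adamts1, Adamts4 and Adamts14 overlapped their neighbors in that order. With M21 lengths, an alternative chosen after seeing the data, Adamts1 led at day 0 and day 4. At day 7 Adamts2 then led at 17.4 ± 0.331 RPKM without overlap, Adamts10 followed at 13.1 ± 0.802, and Adamts12 at 7.86 ± 1.01 lay below Adamts1, Adamts4 and Adamts14 (SD, n = 3). In deposited RPKM Adamts9 and Adamts15 stayed lowest at every stage, although with M21 lengths Adamts9 overlapped Adamts6 at day 7. The level of Adamts5 relative to Adamts9 in the same library fell from 36.8 ± 4.58 at day 0 to 7.60 ± 1.01 at day 4 and 1.91 ± 0.490 at day 7 (SD, n = 3). This pair was chosen after its values were seen.

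The rest of the family and its partners were counted from lists of 52 genes, of which 41 entered the test. Of these, 17 were higher, 8 lower and 16 not called, where 12.6% of all genes tested were higher and 18.6% lower. The same shares stand beside the counts by list and by marker set that follow. Against the median log2 fold change of -0.11 over all genes tested, the medians were -0.39 for other ADAMTS genes, -0.04 for ADAMTS-like genes, 0.52 for fibrillar procollagens and 0.53 for proteoglycan and COMP substrates. They were 0.29 for other procollagen processing genes, 0.05 for inhibitor and clearance genes, 0.55 for proprotein convertases, -0.08 for glycosylation genes and -2.11 for fibrillins. Among the other 9 ADAMTS genes, 5 were tested, with 2 higher and 1 lower. Adamts18 (chromosome 8, 113697126 to 113848738), whose physiological substrates are poorly known, was at 0.493, 0.696 and 0.687 RPKM at day 0, 7.71, 9.42 and 9.83 RPKM at day 4 and 17.8, 12.5 and 15.5 RPKM at day 7. Its stages were separate, and its log2 rise of 4.43 (limma adjusted p = 2.17e-25) exceeded that of every one of the 10 members. At day 7 it stood at 15.3 ± 2.67 RPKM (SD, n = 3), or at 8.47 ± 1.48 with its M21 length, which is 1.80 times the one behind the deposited value.

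Adamts17, a relative of Adamts10 named after its values were seen, also rose (log2 2.38, limma adjusted p = 4.57e-14). Adamts7, the closest relative of Adamts12, fell by 0.58 on the log2 scale (limma adjusted p = 0.0172), opposite to Adamts12. That call was lost without day 0 replicate 1 (adjusted p = 0.0515), day 7 replicate 2 (0.132) or day 7 replicate 3 (0.0507), and with no filter on low genes (0.0509). Adamts3, the third procollagen N-proteinase, was low, with mean levels of 0.487 RPKM at day 0, then 0.635 at day 4 and 0.371 at day 7, and did not pass the test (log2 -0.39, limma adjusted p = 0.233). Adamts8 was tested and not called, Adamts16 and Adamts20 were not tested, and Adamts13 and Adamts19 had at most 3 reads in each library.

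Of 7 ADAMTS-like genes, which encode related proteins without a protease domain, 5 were tested, with 1 higher and 1 lower. Adamtsl3 was measured at 73.0, 66.5 and 63.3 RPKM at day 0, at 23.9, 22.6 and 22.5 RPKM at day 4 and at 17.9, 14.1 and 15.5 RPKM at day 7. Its libraries did not overlap between stages, and the log2 fold change was -2.09 (limma adjusted p = 6.11e-16). Adamtsl5 was higher by 0.40 on the log2 scale (limma adjusted p = 0.0470), a call that was lost without any one of 5 of the 6 libraries, all but day 0 replicate 3, with adjusted p between 0.110 and 0.202. It was also lost with the RPKM table (adjusted p = 0.0536), with no filter on low genes (adjusted p = 0.0509) and with a replicate block (adjusted p = 0.107).

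Among the substrates, 5 of 9 fibrillar procollagen genes rose and 1 fell. Col1a1 and Col1a2, the chains of type I collagen, rose by 1.35 and 1.29 on the log2 scale (limma adjusted p = 1.78e-05 and 7.11e-05), and Col3a1 by 0.82 (adjusted p = 0.00165). These 3 calls were lost when genes of any level were kept in the fit, with adjusted p of 0.187, 0.298 and 0.168. The largest rise was that of Col11a2 (log2 3.46, limma adjusted p = 1.33e-18) and the fall that of Col2a1, the cartilage collagen (log2 -2.16, limma adjusted p = 2.51e-09, but 0.0998 with robust variances). Col2a1, Col11a2 and Acan also belong to the chondrocyte markers, whose summed RPKM was 167 to 481 at day 0, 136 to 231 at day 4 and 177 to 277 at day 7, with 2 of 5 tested genes higher and 3 lower. The highest sum was that of day 0 replicate 1, which held 420 RPKM of Col2a1 against 140 and 158 RPKM in the other day 0 libraries. Replicate 1 also had the highest Col2a1 at day 4 (145 against 33.8 and 64.3 RPKM) and at day 7 (92.8 against 29.2 and 38.5 RPKM).

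Of 7 proteoglycan and COMP genes, 6 were tested, with 3 higher and 1 lower. Vcan, which encodes versican, a substrate of ADAMTS1, ADAMTS5, ADAMTS9 and others, was at 16.3, 14.6 and 12.5 RPKM at day 0, 9.31, 9.32 and 8.69 RPKM at day 4 and 5.65, 4.82 and 4.45 RPKM at day 7. It fell without overlap at each step (log2 -1.53, limma adjusted p = 2.38e-11). Comp, a substrate of ADAMTS7 and ADAMTS12, rose (log2 1.60, limma adjusted p = 2.20e-07, but 0.113 with robust variances), with 13.4, 5.45 and 5.48 RPKM at day 0 and 37.6, 20.4 and 15.4 RPKM at day 7. Its day 4 libraries, at 6.10, 3.15 and 3.72 RPKM, overlapped those of day 0 and averaged 0.534 times their mean. Acan, which encodes aggrecan, was at 9.03, 2.97 and 3.63 RPKM at day 0 and at 19.0, 7.70 and 6.18 RPKM at day 7, and these stages overlapped. Its log2 fold change was 1.06 (limma adjusted p = 0.000994). The call was lost without day 0 replicate 3 (log2 0.89, adjusted p = 0.115) and without day 7 replicate 1 (log2 0.58, adjusted p = 0.142). It was also lost with TMM scaling (adjusted p = 0.0504) and with robust variances (adjusted p = 0.348). The same held for median-of-ratios scaling, protein-coding scaling, edgeR and DESeq2, so that 8 of 18 alternatives lost the call.

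Among other procollagen processing genes, 2 of 4 tested rose and none fell. Pcolce2, an enhancer of procollagen C-proteinase, rose by 1.62 (limma adjusted p = 2.88e-10) and Bmp1, the C-proteinase itself, by 0.47 (limma adjusted p = 0.0167), the latter not without day 7 replicate 1 (adjusted p = 0.156) or day 7 replicate 3 (adjusted p = 0.0879). Pcolce did not pass (log2 0.11, limma adjusted p = 0.632).

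Of 4 tested inhibitor and clearance genes, 1 rose and 1 fell. Timp1 rose by 1.99 on the log2 scale (limma adjusted p = 1.45e-14), from 267 ± 39.2 RPKM at day 0 to 1193 ± 104 at day 4 and 1058 ± 126 at day 7 (SD, n = 3). Timp3, the tissue inhibitor that acts best on ADAMTS proteases, was at 64.5 ± 7.00, 75.6 ± 7.43 and 57.8 ± 2.49 RPKM and did not pass (log2 -0.15, limma adjusted p = 0.494). It passed as lower without day 0 replicate 3 (log2 -0.25, adjusted p = 0.0419). Lrp1, the endocytic receptor that clears ADAMTS5, was lower by 0.49 (limma adjusted p = 0.0227), a call lost without day 7 replicate 2 (adjusted p = 0.127) or day 7 replicate 3 (adjusted p = 0.118), with TMM scaling (adjusted p = 0.125) and in all count models run (adjusted p from 0.101 to 0.243).

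Of 4 proprotein convertase genes, 2 rose and 2 were not called, with Pcsk6 the larger rise (log2 1.91, limma adjusted p = 4.06e-14). Of the genes for enzymes that glycosylate thrombospondin repeats, Pofut2 rose by 0.46 (limma adjusted p = 0.0188), a call lost without day 7 replicate 1 (adjusted p = 0.169) or day 7 replicate 3 (adjusted p = 0.0658). B3galtl, which extends the same sugar, was lower (log2 -0.63, limma adjusted p = 0.00300). Both fibrillin genes, whose microfibrils bind ADAMTS10 and ADAMTS-like proteins, fell, Fbn2 by -2.32 (log2, limma adjusted p = 9.89e-16) and Fbn1 by -1.89 (log2, limma adjusted p = 1.97e-14).

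**Figure D4:**
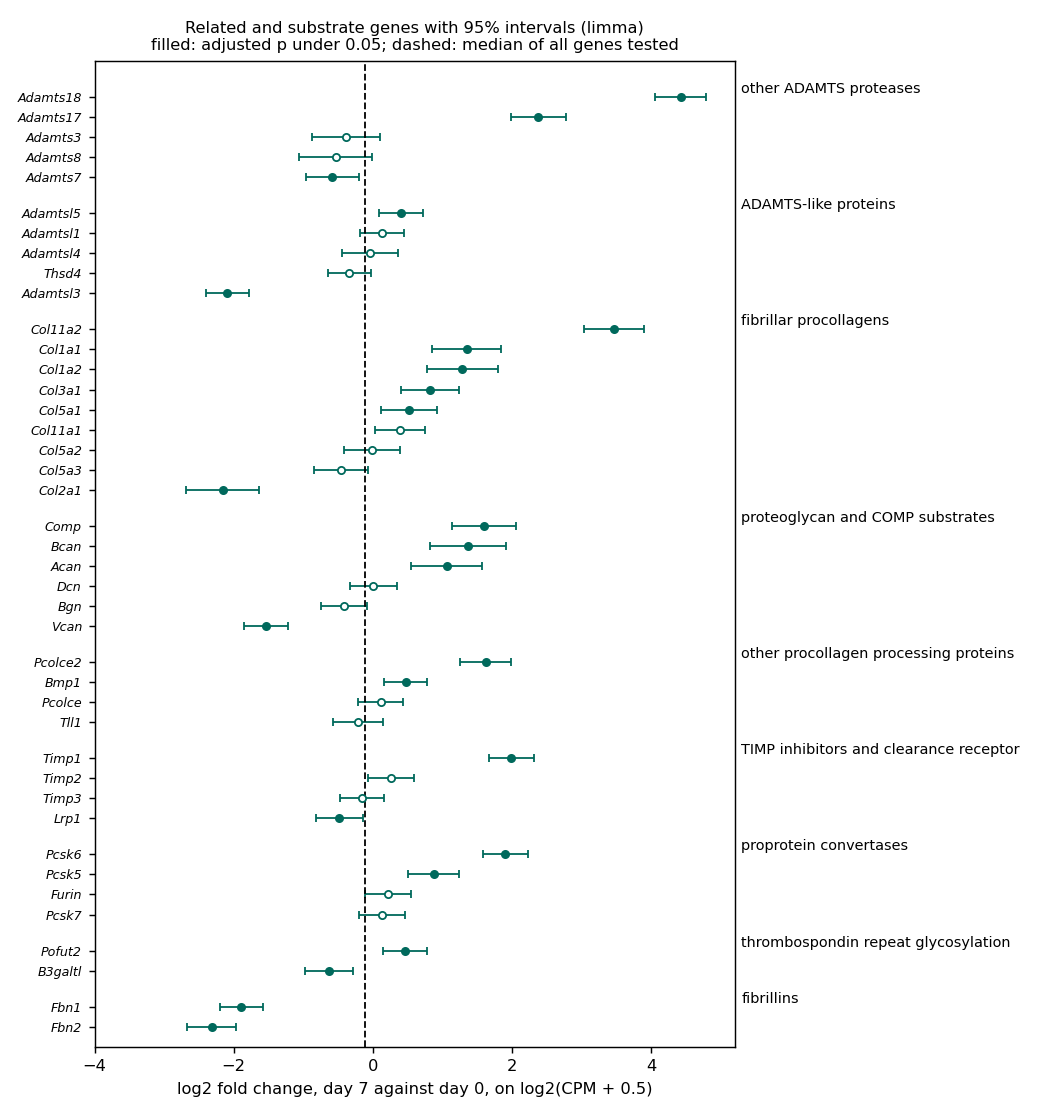
Log2 fold change at day 7 against day 0 on the log2(CPM + 0.5) scale (x axis) of the 41 tested genes from the lists of related proteases, substrates and partners, with 95% confidence intervals from limma over 3 libraries per stage. Filled points passed an adjusted p of 0.05, the dashed line is the median of all genes tested, and the range runs from 4.43 for Adamts18 to -2.32 for Fbn2.

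Markers of other cell types moved with the stages as well. All 7 macrophage and osteoclast genes rose, with a summed RPKM of 148 to 201 at day 0, 321 to 324 at day 4 and 316 to 336 at day 7, most of it from Ctsk and Lyz2. Others of this list were low, with means at day 0 and day 7 of 0.0366 and 0.129 RPKM for Ptprc and 0.959 and 1.92 RPKM for Csf1r. Of 5 smooth muscle and pericyte genes 3 rose and 1 fell, and of 5 proliferation genes 3 fell, with summed RPKM of 64.0 to 104 at day 0, 43.1 to 55.4 at day 4 and 53.2 to 61.6 at day 7. The endothelial genes summed to at most 0.459 RPKM in any library with Emcn at 0 reads, and Adipoq, Plin1, Cidec, Myod1, Myog and Ckm had at most 3 reads in each library. Of the other muscle genes Acta1 and Des rose, with the 5 skeletal muscle genes summing to at most 9.35 RPKM, and of the adipocyte genes only Pparg was tested and it did not pass. The part of these cell types in the ADAMTS levels was not tested.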

How the data were processed

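Total RNA was depleted of ribosomal RNA. Per the labels and methods, the authors aligned reads with STAR 2.0.4b (Ensembl release 76, GRCm38) and counted unambiguous unique reads per gene with featureCounts. They deposited CPM, scaled to library totals, and RPKM, scaled also to gene length, with days 0 and 7 in a shared table and day 4 apart. Repeated identical lines were used once. Whether strand was used in counting is not stated. The limit of 3 reads used for unread genes covers counting error only.

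The CPM were whole multiples of 1 read for at least 99.9975% of values per library (tolerance 0.02), so reads could be recovered. Day 7 was compared with day 0 using limma 3.58.1 (R 4.3.3, eBayes with trend) after a filter at mean CPM 1, which kept 12712 genes. Prior degrees of freedom were 42.9 and residual ones 4, so p-values lean on the trend over all genes. For the 6 called members the exact two-sided permutation test gave p = 0.1, the smallest that 3 against 3 libraries allow. Fold changes on this scale understate those of low genes.

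All 10 members are named, with the most raised and most lowered called gene of each list and a fixed set of substrates and partners (Adamts3, Col1a1, Col1a2, Col3a1, Acan, Vcan, Timp3, Pcolce and Bmp1). Adamts17 and Fbn1 were added after their values were seen. Members and lists were chosen with earlier results of these data known. Alternatives were other pseudocounts (0.1 and 1), no filter, the RPKM table, TMM or median-of-ratios scaling, edgeR 4.0.16, DESeq2 1.42.0, voomWithQualityWeights, robust variances, a replicate block, leaving out each library and, added after seeing the data, scaling to protein-coding reads and M21 gene lengths for levels and the ratio. Columns of values that matched no sample numbered 0. Gene positions and overlaps are from GENCODE M21, while the deposited RPKM rest on the authors' own gene lengths.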

Additional observations from a re-analysis of the deposited data

How the results depend on the processing

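The 6 called members were called in the same direction in all 18 alternatives, and the count stayed at 4 higher and 2 lower without each library in turn. Of 180 member values, 166 kept direction and side of the threshold. Another 7, those of Adamts2 and Adamts10, newly passed, and 7 turned direction, all of Adamts6: 0.0986 with TMM, 0.102 with median-of-ratios, 0.0763 with edgeR, 0.0839 with DESeq2 and a range of -0.21 to 0.12 without each library. Over all genes, 1602 were higher and 2369 lower, or 40.3% of calls higher. Higher calls numbered 2825 with TMM, 2843 with median-of-ratios (52.1% of calls), 2818 with edgeR, 2581 with DESeq2 and 3148 with voomWithQualityWeights, and lower calls 4020 with protein-coding scaling (30.6% of calls higher). Without each library, higher calls ran from 1151 to 1631 and lower calls from 1521 (without day 0 replicate 2) to 4699 (without day 0 replicate 3), with 1554 without day 7 replicate 2. In the partner lists, 12 to 17 genes were higher and 6 to 12 lower without each library. The cause of these shifts was not tested. The log2 rise of the procollagen to proteoglycan ratio at day 4 was 1.04 in CPM, 0.61 as a mean of log2 values, 1.41 without the highest member of each group and 0.84 to 0.99 without each library. At day 7 it was 0.39, 1.71 and 1.32 to 1.48 for the last 3 of these. Without each library, 7 to 8 members lay above day 0 at day 4 and 5 to 6 below day 4 at day 7. Same-numbered deviations of day 0 and day 7 correlated between -0.44 and -0.02. The highest correlation, 0.36, was between day 0 replicate 3 and day 7 replicate 2, the libraries with the lowest shares of protein-coding reads. Because such deviations also carry library composition, these values cannot decide whether replicates of the same number are paired. Col2a1, Col9a1 and Comp were highest in replicate 1 at every stage, whereas Sox9, Acan and Col11a2 were not. Whether the replicate numbers mark a shared origin of the cells was not tested. A replicate block left the members at 4 higher and 2 lower and gave 1463 higher and 1950 lower over all genes. At the shallowest depth, Adamts15 rested on 9 reads.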

Other observations

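Across the 9 libraries, among 9100 genes averaging 10 CPM or more, those whose log2 CPM followed Adamts15 most closely were Plcd1 (Pearson r = 0.995 over 9 libraries), Lifr (0.990), Carmil1 (0.988), Prss35 (0.987) and Pth1r (0.986). Pth1r, the receptor of parathyroid hormone, averaged 31.6 RPKM at day 0, then 98.0 at day 4 and 268 at day 7. Those that followed Adamts5 were Ppp1r26 (r = 0.996), Sema3f (0.995), Adamtsl3 (0.994), Mcm3ap (0.994) and App (0.994), among 9099 genes. App, the amyloid precursor protein gene, averaged 455 RPKM at day 0, then 227 at day 4 and 193 at day 7. The points share their libraries, depths and stages, so these values describe the order of likeness only.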
